A study of Danio rerio with 57 samples.

Results

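The 4263 genomic places described here were first listed as marked by H3K9me3, which is histone H3 trimethylated at lysine 9, at 3 h post fertilisation (hpf) of zebrafish development and were found in every later list. They were chosen from the deposited region lists by presence alone. Touching and overlapping regions of 6 lists, at 2, 2.5, 3, 3.5, 4 and 4.5 hpf, were merged into 49729 places on chromosomes 2 to 9 and 15 to 25. A place was taken when no region of the 2 and 2.5 hpf lists lay in it and when each of the 3, 3.5, 4 and 4.5 hpf lists covered 1 bp of it or more. These kept 3 hpf places made up 8.57% of all places. Presence in the lists is therefore the rule and no result, and no test was made of anything that follows. A covered length is the number of bases that a list's regions cover within a place.

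The marks were mapped in whole AB embryos by CUT&RUN, in which an antibody guides a nuclease to cut out the chromatin it binds. The series labels 57 libraries. The time course has 17 H3K9me3 libraries made with the antibody Abcam 8898, 2 for 2 hpf and 3 for every other time, and 10 libraries made with IgG, an antibody with no chromatin target. The other 30 libraries, a confirmation experiment with antibodies of 3 suppliers, were not analysed here. All groups share the AB genotype and an E. coli DNA spike-in, and no other treatment is labelled. Each time point has 1 list of regions with no value per replicate, read here as pooled over its libraries. Spread between embryos and read depth are unknown, and more or longer regions can come from deeper sequencing as well as from more of the mark. No IgG list was analysed here to give a background level. The rule leaves out chromosomes 1 and 10 to 14. Their median region signal was 5.17 times that of the 19 other chromosomes at 4.5 hpf and 0.952 times at 4 hpf.

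H3K9me3 is the main mark of constitutive heterochromatin, the compact chromatin that silences transposable elements and other repeats. It is written by histone methyltransferases of the SUV39H and SETDB1 families and read by HP1 proteins, which can in turn bring in more of the methyltransferase, so that a domain may start at a nucleation site and spread outward. Early zebrafish embryos divide rapidly with little zygotic transcription until the major wave of genome activation in the blastula. The time points span the cleavage and blastula stages and the start of epiboly, when the blastoderm begins to cover the yolk. The sources used here do not give the genome build of the lists, and no matching annotation was at hand. Places are therefore named by position alone, counted from 1, and no gene or sequence is given.

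The 3 hpf list had 10856 places with no earlier mark, of which the kept 3 hpf places were 39.3%. A further 2886 places were in the 3 hpf list alone and 1731 were absent only from the 4.5 hpf list. That list is shorter than the 4 hpf list, with 25986 regions on the 19 chromosomes against 38899. Absence from it therefore need not mean loss of the mark, and the kept share depends on it. The other 1976 were found in some other combination of later lists.

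The kept 3 hpf places were short when they first appeared. At 3 hpf their covered length ranged from 274 to 15187 bp with a median of 826 bp, and the middle 50% of places lay between 551 and 1382.5 bp. In the 3.5, 4 and 4.5 hpf lists the median was 1537, 1844 and 1912 bp. Most of the change in the median thus lay between 3 and 4 hpf. Summed over all places, the 4 lists covered 4.85, 8.22, 10.2 and 10.8 Mb. These sums were 13.9%, 14.6%, 14.3% and 16.2% of what each list covered on the 19 chromosomes. Places of 5 kb or more numbered 32, 178, 360 and 424 in the successive lists, or 0.751%, 4.18%, 8.44% and 9.95%. Places first seen at 2.5 hpf and kept had 7.23%, 16.6%, 22.6% and 23.3%. Those first seen at 3.5 hpf and kept had 0.751%, 2.73% and 4.71% from the 3.5 hpf list on. Places under 500 bp fell from 594 (13.9%) at 3 hpf to 31 (0.727%) at 4.5 hpf. In the 2.5 hpf cohort they went from 4.04% to 0.329% over the same lists.

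The kept cohorts, aligned by the list in which they first appeared, started at nearly the same length. The first median was 845 bp for the 4553 places first seen at 2.5 hpf and kept, 826 bp for the kept 3 hpf places and 847 bp for the 4796 places first seen at 3.5 hpf and kept. At 4.5 hpf the medians were 2847, 1912 and 1431 bp, in the order in which the cohorts appeared. A place is dated by the earliest region anywhere within it, and a wider place has more room for one. Part of this order can thus follow from the rule. The ratio of length in the list after appearance to length at appearance had a median of 1.71, 1.57 and 1.27. Over all places found in both lists of the same interval, the median ratio was 1.54, 1.35 and 1.12, so the interval itself had a smaller ratio at later times.

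**Figure D1:**
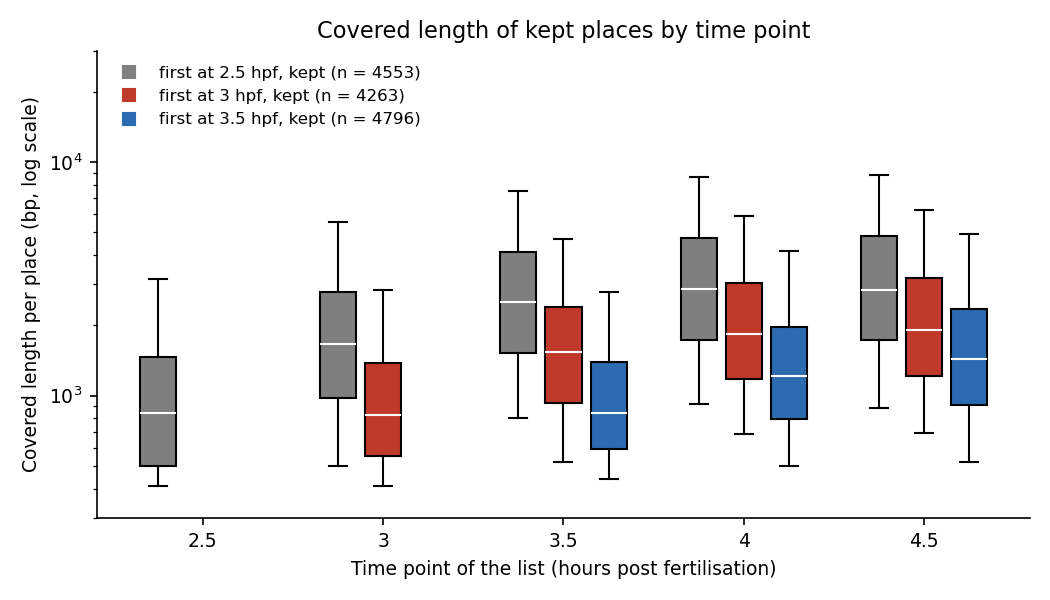
Covered length per place on a log scale against the time point of the list, for the 3 kept cohorts first seen at 2.5, 3 and 3.5 hpf. White lines are medians, boxes the middle 50% of places and whiskers the 5th and 95th percentiles of places, with no replicate error; the kept 3 hpf places go from a median of 826 bp in the 3 hpf list to 1844 bp in the 4 hpf list.

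The steps differed in size. From 3 to 3.5 hpf, 1488 of the 4263 places (34.9%) at least doubled in covered length, beside 23.5% of the 15800 places of any age found in both lists. From 3.5 to 4 hpf the number was 459 (10.8%), beside 9.48% of all such places. From 4 to 4.5 hpf it was 161 (3.78%), beside 6.9%. Over the whole span from 3 to 4 hpf, 2033 places (47.7%) at least doubled, beside 32.5% of all places in both lists, and from 3 to 4.5 hpf 2173 (51.0%), beside 38.5%. The rule used presence in these same lists, so the shares stand side by side only. The median ratio from 3 to 4 hpf was 1.93, with the middle 50% of places between 1.33 and 3.09.

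Length did not change in 1 direction at every place. From 3 to 4 hpf, 3853 places (90.4%) became longer, 406 (9.52%) became shorter and 4 kept their length. Over all places in both lists, 83.4% became longer and 16.2% shorter. From 4 to 4.5 hpf 2470 kept 3 hpf places (57.9%) were longer and 1782 (41.8%) shorter, with a median ratio of 1.04. Over all places in both lists, 61.9% were longer and 37.7% shorter, with a median ratio of 1.05. A run of 3 increases was seen at 1420 kept 3 hpf places (33.3%), and 1135 (26.6%) became longer up to 4 hpf and shorter at 4.5 hpf. The longest of the 4 covered lengths was the last one for 2175 of the kept 3 hpf places. It was the 4 hpf one for 1332, the 3.5 hpf one for 573 and the first one for 183. Neither these counts nor those of the runs were computed over all places.

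The 4 to 3 hpf ratio fell with the starting length. That length sets the bands and is also the divisor of the ratio, so part of the fall follows from the definition. Places under 500 bp at 3 hpf had a median 4 to 3 hpf ratio of 3.12, those from 500 to under 1000 bp 2.18, those from 1 to under 2 kb 1.58 and those of 2 kb or more 1.34. In bases the median gain was 862, 796, 784 and 951 bp in the same order, far more even than the ratios. The places first seen at 2.5 hpf and kept had ratios of 3.50, 2.18, 1.55 and 1.28 in these bands of 3 hpf length. Their median ratio over all lengths was 1.54 against 1.93 for the kept 3 hpf places, a larger gap than in the 3 upper bands. The earlier cohort had fewer short places, with 184 under 500 bp at 3 hpf against 594.

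The places were mostly single regions throughout. At 3 hpf 376 places (8.82%) held more than 1 separate region, with at most 4, and at 4.5 hpf 80 (1.88%) did. Of the bases covered at 3 hpf, the 3 later lists covered 83.3%, 89.2% and 88.3%. The 3 hpf bases were covered in full at 2120 (49.7%), 2750 (64.5%) and 2823 places (66.2%). At 169, 81 and 65 places the regions of the 3.5, 4 and 4.5 hpf lists shared no base with the 3 hpf regions, although all lie in 1 merged place. Shared bases were not computed over all places.

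Lengthening lay on both sides of the 3 hpf footprint. By 4 hpf 2789 places (65.4%) had extended at both edges, 1315 (30.8%) at 1 edge and 159 (3.73%) at neither. Edges were not compared over all places. The median shift of an edge was 296 bp on the lower-coordinate side and 311 bp on the higher. Seen from the nearest 2 or 2.5 hpf region, 49.4% of the bases extended by 4 hpf lay on the side facing it. The median edge shift was 303 bp facing it and 304 bp away from it. A place that joined an earlier region left the set, so the rule itself limits growth on the facing side. At 1 kb from the centre of the 3 hpf footprint, 13.4% of places were covered at 3 hpf on the facing side and 13.2% on the other. At 4 hpf the values were 43.3% and 43.9%. At 5 kb they were 12.4% on the facing side and 6.69% on the other at 4 hpf, where the facing side includes the earlier regions themselves.

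**Figure D2:**
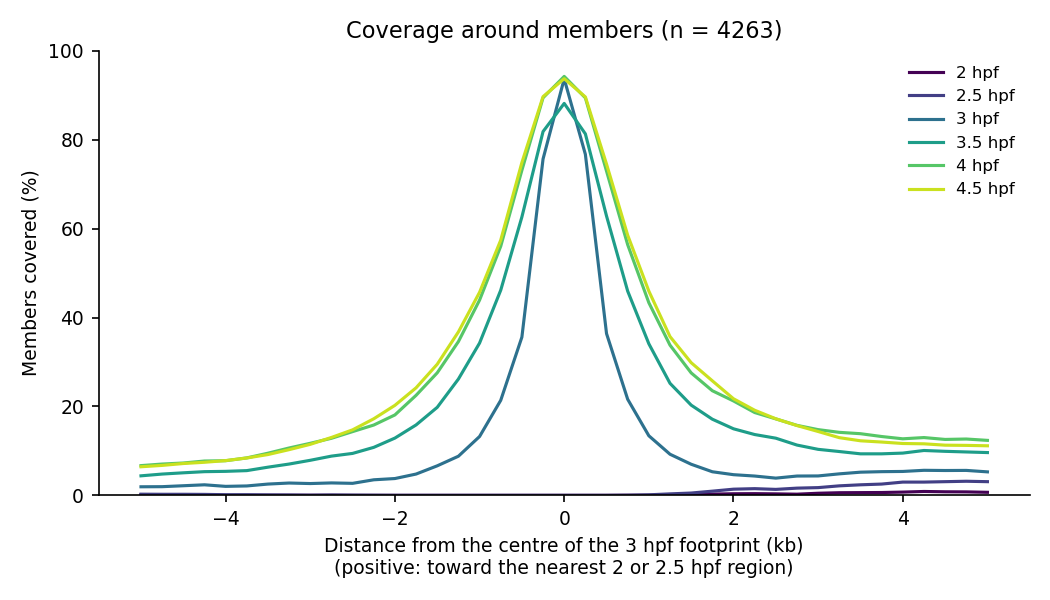
Share of the 4263 kept 3 hpf places covered by each list (%), against the distance in kb from the centre of the 3 hpf footprint, with positive distances toward the nearest 2 or 2.5 hpf region. Each line is 1 pooled list; at 1 kb on the facing side coverage goes from 13.4% in the 3 hpf list to 34.1% and 43.3% in the lists that follow, and the 2 and 2.5 hpf lines are at 0 in the centre because the rule requires it.

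Most of the places lay at a distance from the earlier mark. The gap from the 3 hpf regions of a place to the nearest 2 or 2.5 hpf region ranged from 11 to 827379 bp, with a median of 19517 bp and the middle 50% between 8120 and 46798 bp. The median depended on which regions were used. It was 38774.5 bp when the places and the earlier regions both came from the 50% of each list with the lower deposited p-values. With regions at least 1 kb wide for both it was 59139 bp. Fewer earlier regions leave wider gaps, so part of this rise can follow from the cut. With all regions, only 40 kept 3 hpf places (0.938%) lay within 1 kb and 628 (14.7%) within 5 kb, while 3275 (76.8%) lay within 50 kb. The nearest earlier region was one of the 2.5 hpf list for 3520 places and one of the 2 hpf list for 743. The 2.5 hpf list is the longer, with 16006 regions on these chromosomes against 5673. The places first seen at 3.5 hpf and kept had a median gap of 23420.5 bp to the same 2 earlier lists, and the places first seen at 3 hpf and not kept 17260 bp. Of the latter, 3.35% lay within 1 kb and 21.7% within 5 kb.

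A place could stay in the set only if it never merged with an earlier region, which limits how close it can lie and how far it can grow toward one. Of 13019 merged 3 hpf regions that overlapped no earlier region, 4675 (35.9%) lay in kept 3 hpf places and 6665 (51.2%) in places not kept. The other 1679 (12.9%) lay in places that hold a 2 or 2.5 hpf region elsewhere within them and so were left out.

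The change in length differed little with the distance to earlier regions. The median 4 to 3 hpf ratio was 1.75 for the 627 places under 5 kb from an earlier region. It was 1.98 for 1535 places from 5 to under 20 kb, 2.00 for 1113 from 20 to under 50 kb and 1.95 for 988 at 50 kb or more. The nearest places were the longest at 3 hpf, with a median of 956 bp against 749 bp for the farthest. Under 5 kb, 40.2% of the extended bases faced the earlier region, and the median edge shift was 192 bp facing it and 335 bp away. From 5 to under 20 kb these shifts were 356 and 315 bp, and beyond 50 kb 300 and 257 bp.

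The next region of the same list lay closer to the places from 3 to 4 hpf and farther away at 4.5 hpf. The lists themselves hold 24729, 33146, 38899 and 25986 regions on the 19 chromosomes from 3 to 4.5 hpf. The median gap to the next region of the same list was 12413, 7587, 5985 and 8805 bp in the 4 lists from 3 to 4.5 hpf. The number of places with another region within 5 kb was 1023, 1568, 1890 and 1398 in these lists. The same count was not computed over all places. Between neighbouring kept 3 hpf places the median gap was 59896 bp, and 314 places (7.37%) had another such place within 5 kb. The cohorts first seen at 2.5 and 3.5 hpf and kept had 8.70% and 9.05% within 5 kb, from somewhat larger sets.

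Among the 10856 places first seen at 3 hpf, the kept share rose with the length at 3 hpf. It was 22.0% for 2700 places under 500 bp, 35.5% for 5620 places from 500 to under 1000 bp, 61.3% for 1897 places from 1 to under 2 kb and 79.7% for 639 places of 2 kb or more. The rule asks only that a region of each later list joins the same place. A longer 3 hpf region offers more bases to overlap, so part of this rise follows from the rule. By distance to an earlier region the kept share was 30.5% under 5 kb, 42.2% from 5 to under 20 kb, 42.2% from 20 to under 50 kb and 39.2% at 50 kb or more. A place that grows into an earlier region leaves the set, which is easiest at short distance. Part of the low share under 5 kb can thus follow from the rule. Places in the 3 hpf list alone were the shortest. Their median 3 hpf length was 500 bp. It was 648 bp for those absent only from the 4.5 hpf list, against 826 bp for the kept ones.

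**Figure D3:**
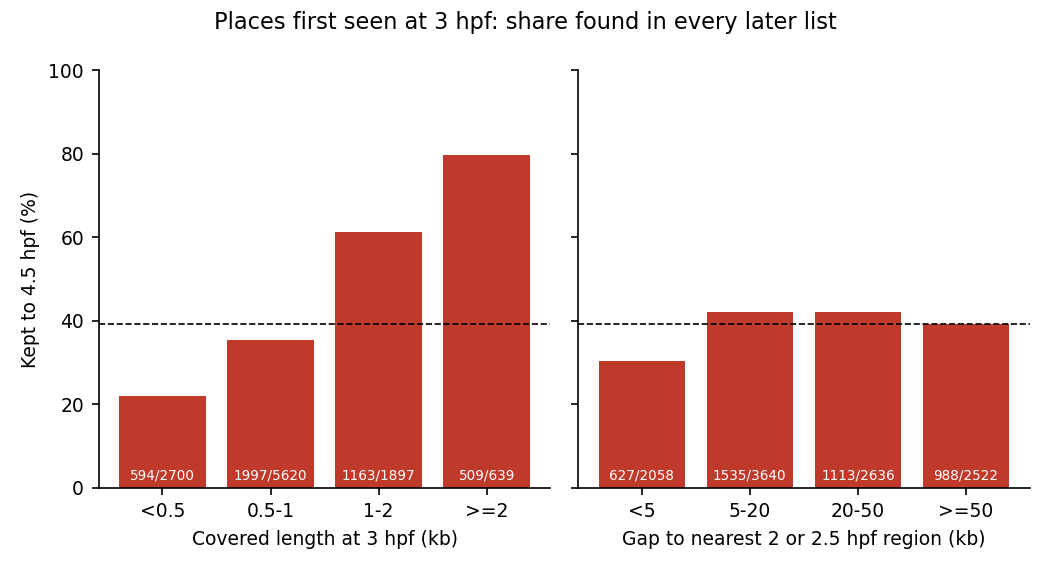
Share of places first seen at 3 hpf that were found in every later list (%), by covered length at 3 hpf in kb (left) and by the gap to the nearest 2 or 2.5 hpf region in kb (right). Bars carry kept places over all places, the dashed line is the share over all 10856 places, 39.3%, and there is no replicate error; the share goes from 22.0% to 79.7% with length and is lowest, 30.5%, under 5 kb from an earlier region. Part of the rise with length follows from the rule, because longer regions offer more bases to overlap. Part of the low share under 5 kb can also follow from it, because places that join an earlier region are left out.

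The authors name each region primary or secondary, a distinction no header explains. At 3 hpf 453 of the kept 3 hpf places (10.6%) held a region named primary, beside 22.5% of all places in that list and 39.7% of the places first seen at 2.5 hpf and kept. The rule was also run on the 50% of each list with the lower p-values and on regions at least 1 kb wide. Both settings cut the 2 and 2.5 hpf lists too, so the places found are other sets. Of the places in these sets, 22.9% and 39.9% held a primary region at 3 hpf. For either setting the share of all places was not computed, so neither value can be set beside the 22.5%. With all regions the number of kept 3 hpf places with a primary region was 1986 (46.6%) at 3.5 hpf and 2564 (60.1%) at 4 hpf. All places of these lists had 30.9% and 32.6%. At 4.5 hpf the number was 720 (16.9%), beside 12.6%. No region named primary was found in any list at 1274 places, and 115 places had one in all 4 lists. Ranked by the deposited signal within each list on the 19 chromosomes, the regions of the kept 3 hpf places had a median percentile of 43.1, 60.8, 67.7 and 55.6 in turn. Lists differ in length, so ranks in different lists show no change in level. At 3 hpf 128 of the 4976 regions of the kept 3 hpf places (2.57%) had a deposited p-value under 0.05, beside 10.4% of all regions. Most regions that date these places to 3 hpf thus had larger p-values. In the later lists the share was 15.2%, 24.6% and 10.2%, beside 12.6%, 13.5% and 7.52%. The test behind these p-values is not stated. Among places first seen at 3 hpf, 77.2% of the 587 with a primary region were kept and 37.1% of the 10269 without. Primary places were longer. Among places from 1 to under 2 kb at 3 hpf, 73.6% with and 59.2% without a primary region were kept.

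The places were spread over all 19 chromosomes, from 179 on chromosome 21 to 342 on chromosome 4. Their share per chromosome lay close to that of all places. Chromosome 7 stood lowest against it, with 5.77% of the kept 3 hpf places and 6.85% of all places. Chromosome 9 had 5.72% and 5.30%. Per Mb the places were densest on chromosome 25, with 5.25, and chromosome 22, with 4.86, and sparsest on chromosome 7, with 3.31, against 4.10 over all 19. They were 9.08%, 8.17% and 7.22% of all places on chromosomes 25, 22 and 7, against 8.57% over all 19. At least 1 kept 3 hpf place lay in 969 of 1053 windows of 1 Mb. The fullest window, 2000001 to 3000000 on chromosome 20, held 23.

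**Figure D4:**
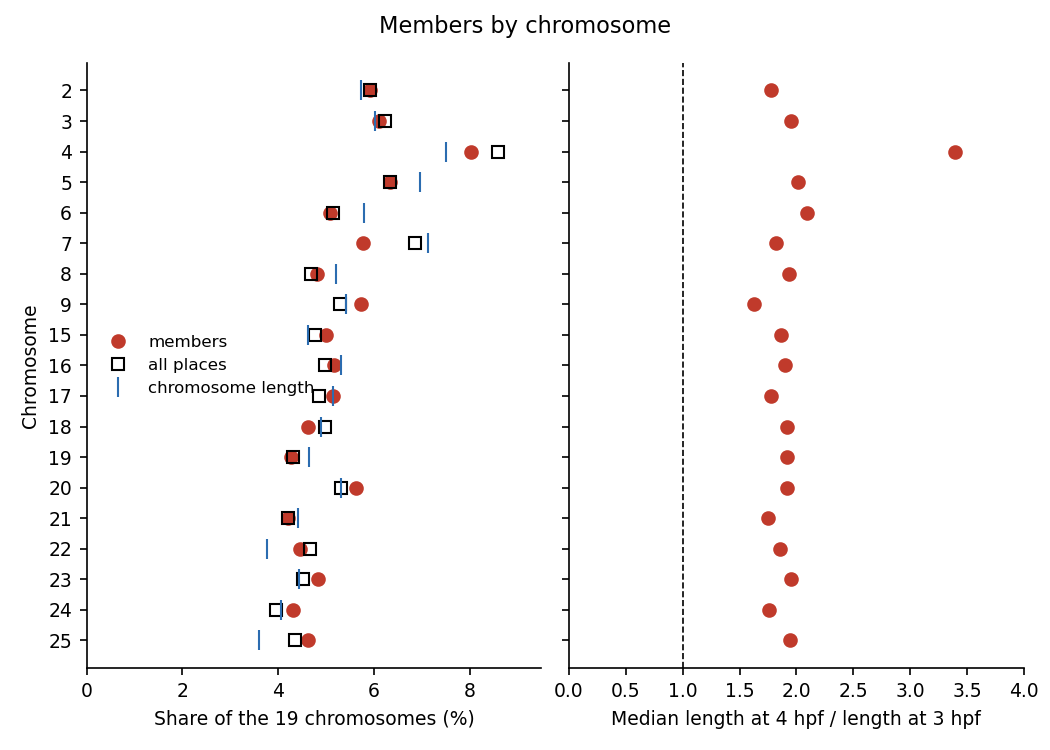
Left, share of the kept 3 hpf places, of all places and of the summed chromosome length that lies on each of the 19 chromosomes (%); right, the median ratio of length at 4 hpf to length at 3 hpf on each. Points come from pooled lists without replicate error; the ratio is 3.40 on chromosome 4 and lies between 1.63 and 2.09 on the other chromosomes.

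Toward chromosome ends the places were denser than their length share. The outer 1 Mb on each side, 3.65% of the length, held 367 places (8.61%), beside 6.91% of all places. The cohort first seen at 2.5 hpf and kept had 9.05% there and the cohort first seen at 3.5 hpf and kept 5.28%. From 1 to under 5 Mb from an end, 14.6% of the length, lay 1199 places (28.1%), beside 24.6% of all places. Beyond 10 Mb, 63.5% of the length, lay 1749 (41.0%), beside 46.6% of all places. In the 3 and 4 hpf lists the end places had a median length of 1103 and 2184 bp, and the interior ones of 810 and 1815.5 bp. The median gap to an earlier region was 11436 bp at the ends and 20995 bp in the interior.

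The long arm of chromosome 4, taken as everything from 28 Mb, is known as a repeat-rich and heterochromatic arm. It held 283 kept 3 hpf places, 6.64% of them on 4.81% of the length, beside 7.23% of all places. The rule was also run on the 50% of each list with the lower p-values, the 2 and 2.5 hpf lists included. It then found 2058 places, a set that differs from the kept 3 hpf places. The arm held 3.01% of that set, below its share of length. The share of all places on the arm was not computed for that setting. At 3 hpf the 283 kept 3 hpf places on the arm were no longer than the others, with medians of 772 and 829 bp. In the later lists the arm medians were 2204, 3265 and 4122 bp, and those elsewhere were 1511, 1788 and 1829 bp. The median 4 to 3 hpf ratio was 3.77 on the arm and 1.88 elsewhere. At 4 hpf 84 arm places (29.7%) had 5 kb or more, against 276 (6.93%) elsewhere. Both shares were below those over places of any age found at 3 and 4 hpf, 37.1% on the arm and 16.6% elsewhere. In the set found with the lower p-value 50% of each list the ratio was 2.13 on the arm, over 62 places, and 1.64 elsewhere. A higher ratio on the arm was also seen over places of any age found at 3 and 4 hpf, with 2.37 on the arm and 1.49 elsewhere, and in the places first seen at 2.5 hpf and kept, with 2.48 and 1.51. It was present in each band of 3 hpf length. Under 500 bp the ratio was 5.56 on the arm and 3.04 elsewhere, and at 2 kb or more it was 1.97 and 1.31. Among places first seen at 3 hpf, 45.5% of 622 on the arm and 38.9% of 10234 elsewhere were kept.

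**Figure D5:**
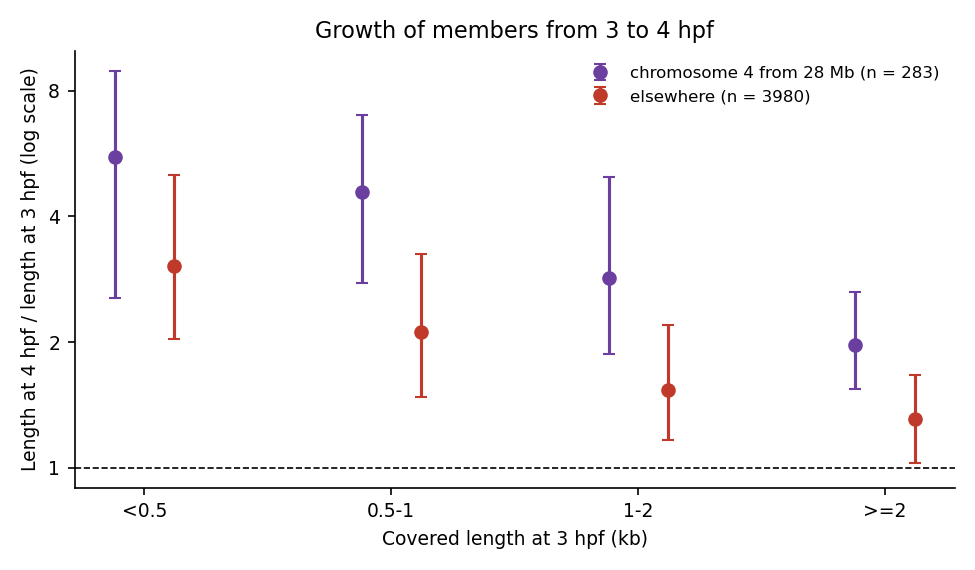
Ratio of covered length at 4 hpf to that at 3 hpf on a log scale, by covered length at 3 hpf in kb, for kept 3 hpf places on chromosome 4 from 28 Mb and elsewhere. Points are medians and bars the middle 50% of places, with no replicate error. The arm median is the higher in all 4 bands, 5.56 against 3.04 under 500 bp and 1.97 against 1.31 at 2 kb or more. The length at 3 hpf is also the divisor of the ratio, so part of the fall across bands follows from the definition.

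The 5 longest kept 3 hpf places at 4 hpf all lay on this arm. The longest, chromosome 4, 32838755 to 32865993, was a single 500 bp region at 3 hpf, from 32855014 to 32855513. Its covered length was 16327, 21660 and 27239 bp in the lists that followed, and a single region of 14862 bp at 3.5 hpf lay beside the 3 hpf region, not over it. The place at 51989243 to 52008277 held 4 separate regions of 337 to 588 bp at 3 hpf, 1901 bp in all. The next 2 lists covered 7074 and 17614 bp of it, and the 4.5 hpf list covered all 19035 bp as 1 region. Both places ended as 1 continuous region.

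Of the other 3, the place at 66568790 to 66584935 was already covered over 4801 bp at 3 hpf, and later over 15074, 16144 and 16007 bp. The place at 64924045 to 64939004 had 1603, 11279, 14928 and 14951 bp in the 4 lists. The place at 70821376 to 70836634 had 1367, 13120, 14758 and 15259 bp. All 3 had most of their final length by 3.5 hpf.

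The largest ratios among places with at least 1 kb at 3 hpf were again mostly on the arm. Chromosome 4, 43872458 to 43885289, had 1036, 10954, 12681 and 12052 bp in the 4 lists, a 12.2-fold change from 3 to 4 hpf. Chromosome 22, 7823210 to 7836923, the only one of the 5 off the arm, started with 2 regions that summed to 1178 bp. Its later lengths were 2661, 13227 and 13517 bp, 11.2-fold from 3 to 4 hpf, and so it lengthened a step later than the arm places. Its 3.5 hpf region, 7828681 to 7831341, overlapped neither of its 3 hpf regions. Chromosome 4, 49035600 to 49047949, went from 1295 bp to 9394, 12046 and 12350 bp. The other 2 were the arm places at 70821376 and 64924045, with ratios of 10.8 and 9.31.

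The 5 longest places at 3 hpf behaved in the opposite way, and none was on the arm. Chromosome 3, 55354546 to 55369949, was covered over 15187, 3969, 1251 and 5183 bp from the 3 hpf list to the 4.5 hpf list. Chromosome 2, 19473308 to 19489802, had 14081, 4926, 2330 and 5825 bp in the successive lists. Its 4 hpf region, 19487391 to 19489720, shared no base with its 3 hpf region, 19473308 to 19487388. Chromosome 7, 53013436 to 53025593, had 12158, 7133, 1028 and 2851 bp. All 3 were shortest at 4 hpf.

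The remaining pair lay 16.3 kb apart on chromosome 8. The place at 34770444 to 34782092 had 11649, 2122, 1286 and 2994 bp. The place at 34798357 to 34809286 had 10930, 961, 500 and 3316 bp, and its 4 to 3 hpf ratio, 0.0457, was the lowest among places with at least 1 kb at 3 hpf. The places on chromosomes 3 and 7, with 0.0824 and 0.0846, were next. These 5 were picked for their length at 3 hpf, so shorter lengths in other lists follow in part from the choice. They were not typical of long places. Of the 32 places with 5 kb or more at 3 hpf, 12 were shorter at 4 hpf, 6 were at 0.5 times their length or less, and the median ratio was 1.09. Over all kept 3 hpf places, 32 (0.751%) were at 0.5 times their 3 hpf length or less at 4 hpf, beside 1.54% of all places in both lists.

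The 3 places farthest from any earlier region lay on chromosomes 7 and 9. Chromosome 7, 34540507 to 34543431, was 827379 bp from the nearest 2 or 2.5 hpf region and went from 284 bp at 3 hpf to 1295, 2864 and 2906 bp. Chromosome 9 held a pair, 34303351 to 34304563 and 34308520 to 34309709, at 826420 and 821529 bp. The first had 1008, 1013, 1213 and 927 bp and the second 869, 968, 782 and 1007 bp, so neither changed much in length.

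Values at the edges of the rule are given as a description. The smallest covered length in any of the 4 lists was 274 bp, at chromosome 6, 59013405 to 59015665, and chromosome 18, 3232470 to 3236454, both at 3 hpf. Next came chromosome 17, 51200268 to 51204751, with 275 bp in the 3 hpf list and 4338 bp in the 4 hpf list. Each region lies whole within its place, so this smallest length says nothing of how many bases join the lists. The nearest to an earlier region were chromosome 22, 33299959 to 33302640, chromosome 24, 9774087 to 9775804, and chromosome 23, 2123189 to 2125569, at gaps of 11, 98 and 166 bp. Just outside, the widest places first seen at 3 hpf and absent from 1 later list were at chromosome 21, 25838548 to 25855714, with 17167, 5857, 0 and 5250 bp in the 4 lists. Chromosome 4, 53367938 to 53377038, had 748, 8699, 0 and 8867 bp, and chromosome 4, 31380185 to 31388816, had 449, 7143, 8632 and 0 bp.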

How the data were processed

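H3K9me3 and IgG CUT&RUN libraries of whole zebrafish embryos were labelled by the submitters, and 1 headerless region list per time point was analysed. The 2.5 and 4.5 hpf lists were read as time course lists, although the confirmation experiment has libraries at these times. Per the submitters' processing notes, the tools were HOMER, bedtools, Picard, SAMtools, STAR and Trim Galore, with no version or role named. The sources used here do not give the caller settings, build or pooling. By their values, the deposited columns hold a signal, a p-value and a score that reaches 1000 for each region. The score was not used. The unit of the deposited signal is unknown, so it was ranked within a list only. The deposited p-values were not used as a threshold to choose places. Regions with a value under 0.05 were counted. The p-values also ranked regions for 1 alternative, in which the 50% of each list with the lower p-values, called the better scored 50%, was used.

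Places, covered lengths and gaps were computed in Python 3.11.15 with pandas 2.3.3 and NumPy 2.4.6, and the code was tested on simulated lists. Starts were counted from 0 in the lists and are printed from 1. Chromosome length was taken as the furthest region end. Distances run from the 3 hpf regions of a place to the nearest 2 or 2.5 hpf region. A length change of 2-fold or more was counted as a call. Depth per list is unknown. With 1 pooled list per time point there is no replicate and no test. The places, comparisons and bands were chosen with earlier results of these data known. Named places are the 5 longest at 3 hpf, the 5 longest at 4 hpf, the 5 largest and 3 lowest ratios among places of at least 1 kb at 3 hpf, the 3 farthest from an earlier region, and the places nearest the edges of the rule. Scaffolds and chromosomes 1 and 10 to 14 were left out.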

Additional observations from a re-analysis of the deposited data

Results flagged for a closer look

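The same rule found places on sequences outside the description above, where no control list was analysed here to compare with. Chromosomes 1 and 10 to 14 held 903 such places, 6.98% of the 12930 places there, of which 70 lay on chromosome 14. Their median covered length was 852, 1512, 1813 and 2530 bp from 3 to 4.5 hpf, and the last value comes from the list in which these chromosomes stand apart. Unplaced scaffolds held 208 such places, on 168 scaffolds, with medians of 845.5, 1452, 1934.5 and 2141.5 bp. The counts are a description, since the rule reads the same lists.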

How the results depend on the processing

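Of 53 values under alternative settings, 21 moved outside the 95% binomial interval of the value given above, or beyond 1.5 times the count. The interval treats places as independent and covers no replicate error. Of the 32 others, 6 come from asking for 200 bp in each list, which could remove no place because the smallest covered length is 274 bp. The settings on chromosome 4 growth were chosen after seeing the data. The better scored 50% and the 1 kb setting cut every list, the 2 and 2.5 hpf ones included, and places were then built anew. Such a set can hold places that have a 2 or 2.5 hpf region in the full lists. With the better scored 50% of each list, 2058 places met the rule. Their median 4 to 3 hpf ratio was 1.65 and the median gap to an earlier region 38774.5 bp. The share on chromosome 4 from 28 Mb was 3.01%, the share with a primary region at 3 hpf 22.9% and the share in the outer 1 Mb 11.1%. With regions at least 1 kb wide, the ratio was 1.59, the gap 59139 bp, the primary share 39.9% and the outer share 10.5%. No share of all places was computed under either setting. Without the 4.5 hpf list in the rule, 5994 places were found, the ratio was 1.72 and the primary share 8.48%. On all 25 chromosomes the gap was 20532 bp. The arm share was 5.48%, lower because the same arm places were counted among those of more chromosomes. Without chromosome 4 the ratio was 1.87. In the better scored 50%, in regions of at least 1 kb and without the 4.5 hpf list, the ratio on the arm was 2.13, 2.54 and 3.28, and elsewhere 1.64, 1.54 and 1.68. The arm share, which was above its share of length, was below it in the better scored 50%; the cause was not tested. Merging over gaps up to 500 bp, or leaving out places within 1 kb of an earlier region moved none of the 6 values outside these limits. No paired analysis was possible because each time point has 1 pooled list without replicate columns. Depth is unknown, so a place absent from the 2 and 2.5 hpf lists may have gone undetected there.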

Other observations

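Counted as deposited, before any merging, regions exactly 500 bp wide made up 480 of the 4976 regions of the kept 3 hpf places at 3 hpf (9.65%), beside 8.69% of all regions of that list on the 19 chromosomes. In the later lists they made up 2.67%, 1.11% and 1.45% of the regions of these places, beside 7.01%, 5.92% and 3.70% of all regions. Of the 32 places that were at 0.5 times their 3 hpf length or less at 4 hpf, 28 were longer again at 4.5 hpf, with medians of 2160, 907.5 and 1356 bp at 3, 4 and 4.5 hpf. They were picked for their low length at 4 hpf, so part of the return follows from the choice.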
